A study of Drosophila melanogaster with 6 samples.

Results

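The H/ACA small nucleolar RNAs (snoRNAs) that guide pseudouridylation of the 28S ribosomal RNA were described in a table of short transcripts from the adult fly midgut. Members were all rows whose gene name in the Ensembl annotation of the fly genome (BDGP6) starts with snoRNA:Psi28S. This rule gave 60 of the 527 listed transcripts that matched the annotation (4 more did not match), and no measured value entered it. All 60 annotated transcripts of this name were listed, next to 191 other snoRNAs. The number in a name stands for the 28S site and a letter after it for one of several copies, so that the 60 transcripts cover 33 sites.

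There were 6 libraries, 3 from Polr3D mutant midguts and 3 from wild-type midguts, all of female Drosophila melanogaster at about 1 week of age. The mutant flies (Polr3D EY/+, genotype dC53EY22749 in the labels) carried the EY22749 P-element insertion in one copy of Polr3D, which encodes a subunit specific to RNA polymerase III (Pol III), the polymerase that makes tRNAs and 5S rRNA. The controls were wild-type flies of the white Dahomey stock, and the mutation had been backcrossed into that outbred background. Polr3D is disrupted in every cell of the fly and not in the gut alone, one wild-type copy remains, and flies with both copies mutated are not viable. Midguts were dissected and pooled, and the labels do not say whether the libraries of a genotype came from separate cultures, so the p-values below measure the spread between these libraries, which may be technical. Only transcripts shorter than 300 bases were in the table. Polr3D mRNA is longer, so the genotype rests on the label, and no midgut cell type marker could be checked.

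An H/ACA snoRNA folds into a pair of hairpins, with an H box between them and an ACA box after the last one. Unpaired pockets in the hairpins base-pair with the target RNA on both sides of a uridine. The pseudouridine synthase dyskerin, Nop60B in the fly, sits on the snoRNA together with further core proteins and converts that uridine to pseudouridine. Most fly snoRNAs are not transcribed from a promoter of their own. They are cut out of introns of genes transcribed by RNA polymerase II, often genes for ribosomal proteins and other parts of the translation machinery, and a single intron can hold several guides. The comparison of genotypes addressed whether the levels of these guides differ under a partial loss of Pol III. The paper counts several fly snoRNAs among the products of Pol III. Whether any of the guides is among those was not checked.

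The guides made up a small part of each library. Libraries held 13465392 to 16891428 counts. The 60 guides together took 0.510%, 0.499% and 0.526% of the counts in the mutant libraries, against 0.638%, 0.585% and 0.603% in the wild-type libraries, with no overlap between genotypes. Within the snoRNAs alone there was no such gap: the guides took 24.5% ± 1.11 of all snoRNA counts in the mutant and 24.2% ± 0.103 in wild type (SD, n = 3 each). Nuclear tRNAs held 14.5 to 16.1% of the counts in the mutant libraries and 10.7 to 11.3% in wild type, and 5.8S rRNA held 35.2 to 38.0% in the mutant and 43.9 to 45.1% in wild type. A share of counts moves when any other class moves, and the part of these 2 classes in the lower share of the guides was not tested. In bulk midgut RNA, fewer cells of a type and less RNA per cell cannot be told apart.

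Levels were compared between guides as CPM, counts per 1000000 counts of a library after edgeR's TMM scaling, divided by the annotated length in kilobases. On this scale the 58 guides that passed the filter on low counts covered a 634-fold range, with mean levels over the 6 libraries of 7.96 to 5043 CPM per kilobase. Of all 60 guides, 10 lay over 1000, 38 between 100 and 1000 and 12 under 100, and the median was 299. The median of the tested guides was 314 CPM per kilobase, against 170 for the guides of 18S pseudouridylation, 863 for the C/D guides of 28S methylation and 400 for all snoRNAs other than the 28S pseudouridylation guides. The 6 highest guides held 47.0% ± 1.69 of the summed level (SD, n = 6 libraries), with 44.2% in the lowest and 49.4% in the highest library. Level and length were hardly related across the 60 guides (Spearman rho -0.08, a description across guides of the same libraries). The order of levels was nearly the same in the mutant and the wild-type means, with a Spearman rho of 0.996 over the 60 guides.

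**Figure D1:**
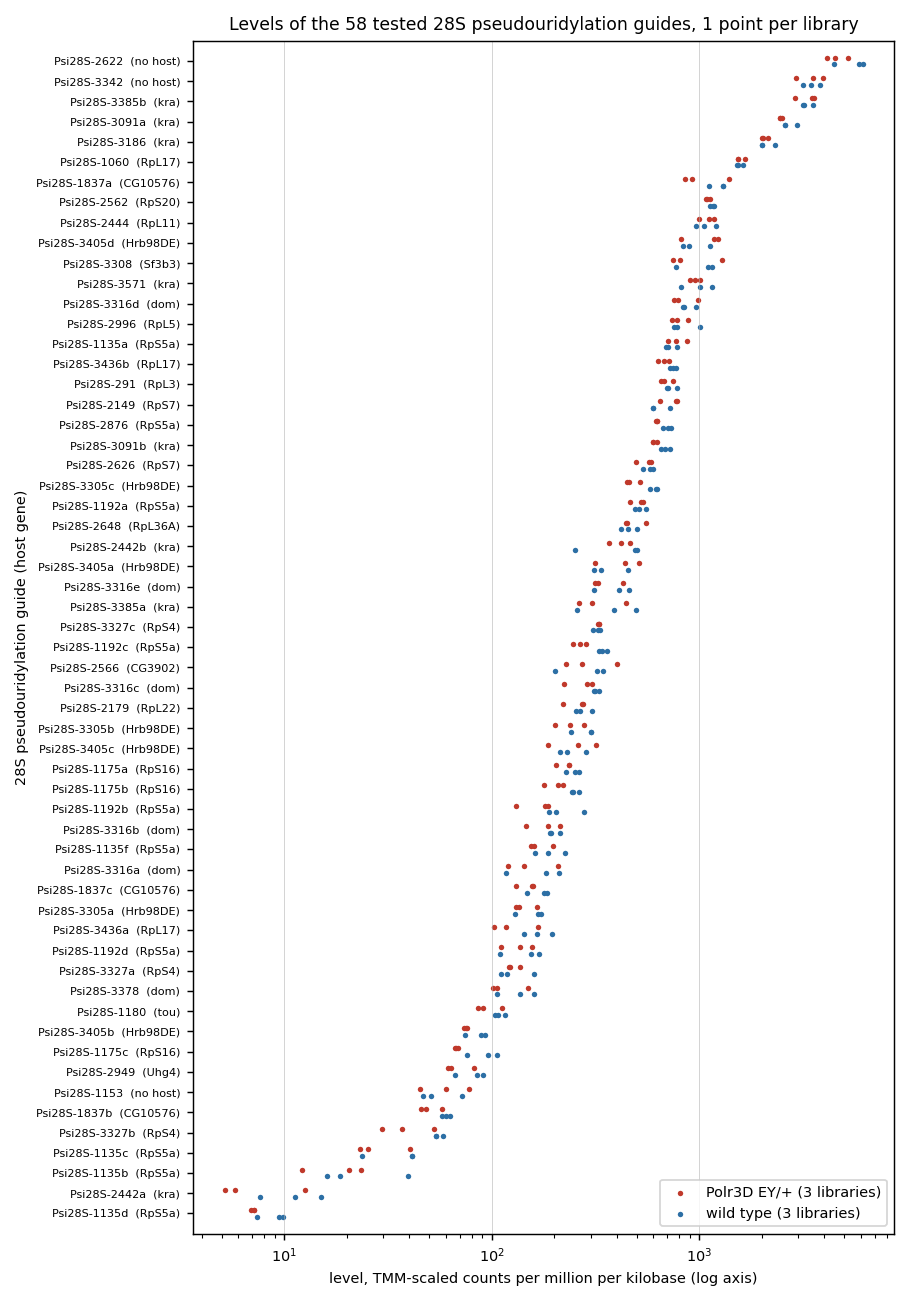
Level of each of the 58 tested guides in every library, as TMM-scaled CPM per kilobase on a log axis, with the host gene in parentheses and red points for Polr3D EY/+ above blue points for wild type in each row. The levels spread 634-fold between guides, whereas the libraries of most guides lie close together and the genotypes mostly overlap.

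The spread between libraries was small beside these differences. The coefficient of variation of a tested guide within a genotype had a median of 12.4% in the mutant and 11.4% in wild type. It reached 52.4% in the mutant and 51.8% in wild type at the most variable guide of each. Neighbours in the order of levels, as in the plot of levels by library, nonetheless mostly overlapped. At 52 of the 57 neighbouring pairs the ranges over the 6 libraries overlapped, so the order of neighbours is mostly not resolved. The libraries were made from RNA selected to be shorter than 200 nucleotides. The guides are 130 to 268 bases long with a median of 141, and 2 exceed that limit: Psi28S-2566 with 268 bases (294 CPM per kilobase) and Psi28S-291 with 220 bases (709 CPM per kilobase). These 2 were named after their values were seen, and the loss of longer RNAs at the selection step was not tested.

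Psi28S-2622 was the highest guide (chromosome 3L, 1488906 to 1489045, plus strand, 140 bases, BDGP6). It had 574, 633 and 729 CPM in the mutant libraries, against 855, 821 and 622 CPM in wild type. Of the wild-type libraries 2 lay above all mutant libraries and the third lay among them, so the genotypes overlapped. Its log2 fold change was estimated at -0.25 (SE 0.16), and edgeR's quasi-likelihood test gave an adjusted p of 0.473. Psi28S-3342 (chromosome X, 5524302 to 5524465, minus strand) had 646, 579 and 479 CPM in the mutant and 516, 566 and 622 CPM in wild type. Its means were the same, 568 ± 83.7 CPM and 568 ± 53.3 CPM (SD, n = 3 each). Neither of these 2 guides lies in an intron of a gene on its own strand.

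Of the other 4 guides among the 6 highest, 3 come from the gene kra on chromosome 3R, which encodes a protein related to the translation initiation factor eIF5. Psi28S-3385b had 403, 499 and 489 CPM in the mutant libraries and 492, 443 and 447 CPM in wild type, with overlap (log2 fold change 0.0080, SE 0.13, edgeR adjusted p = 0.980). Psi28S-3091a, from the same intron, had 329, 331 and 337 CPM in the mutant and 401, 348 and 347 CPM in wild type. All mutant libraries were lower than all wild-type libraries, the nearest being 337 and 347 CPM, and the estimate was -0.14 (SE 0.12, edgeR adjusted p = 0.589). Psi28S-3186 had 285, 306 and 291 CPM in the mutant and 285, 287 and 330 CPM in wild type, and its genotypes overlapped at -0.03 (SE 0.12, edgeR adjusted p = 0.891). Psi28S-1060, from an intron of the ribosomal protein gene RpL17, had 230, 229 and 249 CPM in the mutant and 229, 228 and 243 CPM in wild type. Its means were close, at 236 ± 11.4 CPM in the mutant and 233 ± 8.30 CPM in wild type (SD, n = 3 each; log2 fold change 0.02, SE 0.11, edgeR adjusted p = 0.942).

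At the other end, 2 guides were removed by the filter on low counts and were not tested in the fits that used it. Psi28S-1135e had 0, 2 and 0 counts in the mutant libraries and 0 in each wild-type library. Psi28S-1232, the only listed guide of its site, had 0 counts in each mutant library and 0, 0 and 1 count in wild type. A count of 0 allows up to 3 counts, which is 0.175 to 0.217 CPM in these libraries, and this limit covers counting error only because PCR copies are not independent molecules. The site of Psi28S-1232 was thus not detectable at this depth through a guide of this name, while Psi28S-1135e is one of 6 copies whose site was covered by others.

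In the annotation, 57 of the 60 guides lie within introns of 19 host genes on the same strand, in 29 introns. Genes for ribosomal proteins hosted 29 guides in 11 genes (RpL3, RpL5, RpL11, RpL17, RpL22, RpL36A, RpS4, RpS5a, RpS7, RpS16 and RpS20). The remaining 28 lay in 8 genes: kra with 8 guides, Hrb98DE with 7, dom with 6, CG10576 with 3, and Sf3b3, tou, CG3902 and Uhg4 with 1 each. Hrb98DE encodes an RNA-binding protein of the hnRNP A/B family, dom an ATPase of chromatin remodelling complexes, Sf3b3 a subunit of the U2 snRNP, and Uhg4 is a noncoding snoRNA host gene. No guide overlaps an exon of another gene on either strand. Guides from ribosomal protein genes had a median level of 265 CPM per kilobase (0.0688 to 1564), those from other hosts 326 (9.55 to 3300), and the median log2 fold changes of the tested members were -0.11 and -0.14.

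The 3 guides without a host had 5043, 3464 and 58.7 CPM per kilobase, which includes the 2 highest of all. Psi28S-2622 lies in an intron of stet on the opposite strand, with the nearest gene of its own strand 75 bases away. Psi28S-1153 on chromosome 2R is 14 bases from another snoRNA. With 3 guides, and these levels known, no test of the difference from hosted guides was made.

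Guides of one gene could differ widely in level. The 8 guides of kra lay between 9.55 and 3300 CPM per kilobase, the 7 of Hrb98DE between 80.0 and 1011, the 6 of dom between 126 and 861, and the 11 of RpS5a between 0.144 and 753. Guides of one intron differed too: 12 introns held more than 1 guide, 40 guides in all, and guides of one intron are cut from the same primary transcript as annotated. The intron of kra with 738 bases held Psi28S-3091a (2583 CPM per kilobase), Psi28S-3091b (647), Psi28S-3385a (357) and Psi28S-3385b (3300), in this order from its 5' end. The intron of RpL17 with 801 bases held Psi28S-1060 (1564), Psi28S-3436a (148) and Psi28S-3436b (710).

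The position of the highest guide within an intron was not fixed. Of the 8 introns with 3 or more guides, shown in the panels of level by position, the highest guide was the first from the 5' end in both introns of RpS5a and in those of RpS16, CG10576 and RpL17. It was the last in Hrb98DE and kra, and the middle one in dom. Positions count the 28S guides only. Guides of 18S sites lie among them in the RpS5a intron of site 1135 and in the dom intron. The Hrb98DE intron of 1576 bases intersperses copies for a pair of sites, in the order 3405a, 3305a, 3405b, 3405c, 3305b and 3405d. Their levels there were 393, 150, 80.0, 248, 259 and 1011 CPM per kilobase. The order of the mean levels was the same in mutant and wild type in 6 of the 8 introns.

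**Figure D2:**
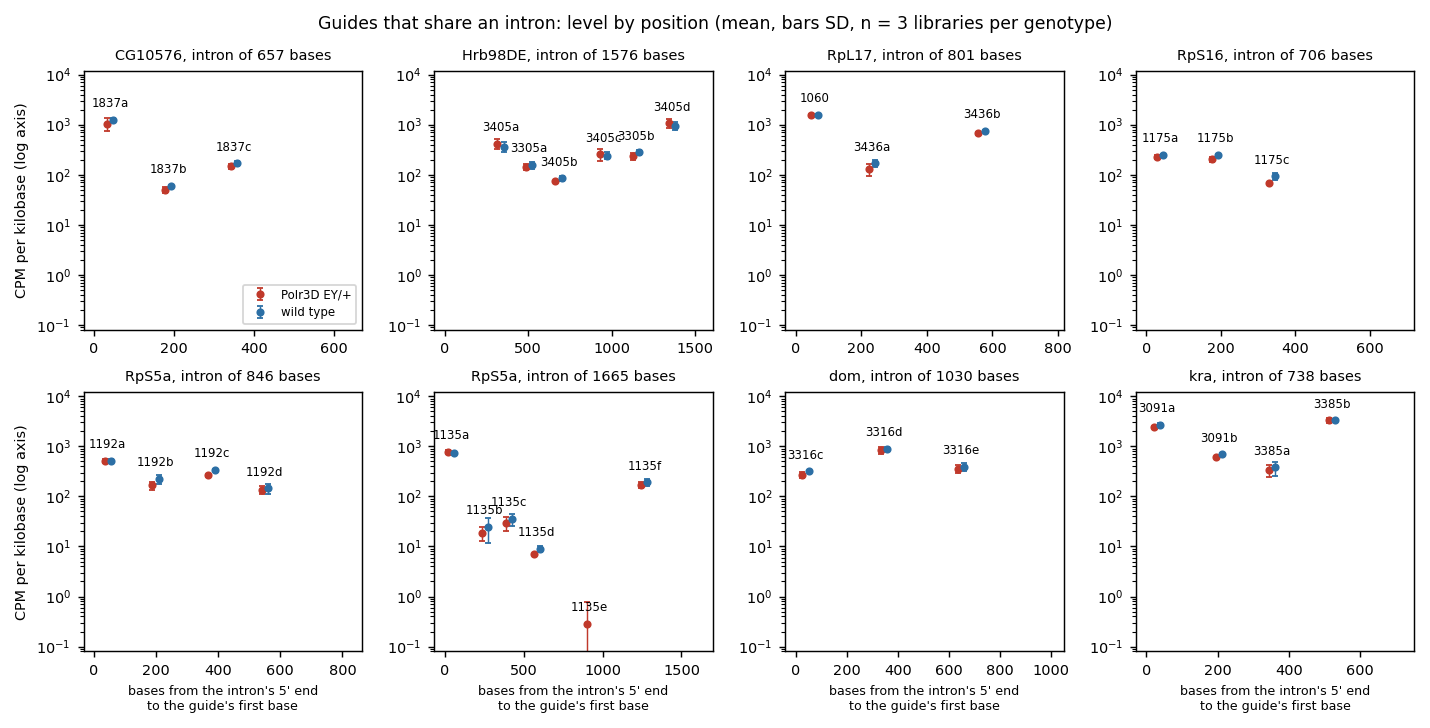
Level of each guide (mean and SD of 3 libraries per genotype, TMM-scaled CPM per kilobase, log axis) against the distance of its first base from the 5' end of the intron, for the 8 introns with 3 or more guides, red for Polr3D EY/+ and blue, offset to the right, for wild type. Levels within an intron differ several fold, in the same order in both genotypes in 6 of the 8 panels, and Psi28S-1135e has no wild-type point because its counts there were 0.

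Of the 33 sites, 21 had 1 listed guide and 12 had several: 4 sites with 2 copies, 4 with 3, 2 with 4, 1 with 5 and 1 with 6. Together the several-copy sites held 39 guides. One copy led at nearly every such site. At 11 of the 12 the same copy was the highest in all 6 libraries, and site 1175 was the exception. The 12 leading copies had a median of 731 CPM per kilobase (236 to 3300) and the other 27 copies a median of 159 (0.144 to 647). The 21 single-copy guides had a median of 685 (0.0688 to 5043), next to which the summed level of the several-copy sites had a median of 1074 (425 to 3657). The leading copy was chosen by its level, so its height is a description. A read that fits more than one transcript is shared out by Salmon, so near-identical copies could exchange reads. The sequences of the copies were not compared here, so the split between copies is uncertain while the sum over a site is less so.

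Site 1135 had the most copies and the widest spread. All 6 lie in an intron of 1665 bases of RpS5a, the gene of a small-subunit ribosomal protein on chromosome X, between Psi28S-1135a at 17146612 to 17146759 and Psi28S-1135f at 17145384 to 17145534 on the minus strand. Their mean levels were 753 (a), 21.6 (b), 32.5 (c), 7.96 (d), 0.144 (e) and 181 (f) CPM per kilobase. Among the copies of this site, those at the 2 ends were thus the highest, and the 4 between them were low. Guides of 18S sites lie in the same intron and were not counted here. Psi28S-1135a was 98.8 to 122 times as high as Psi28S-1135d in the mutant libraries and 69.9 to 95.8 times in wild type. Psi28S-1135d had only 14 to 15 counts per mutant library and 16 to 23 per wild-type library, so that ratio rests on few counts.

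A neighbouring intron of RpS5a with 846 bases holds the 4 copies of site 1192, whose levels were 513 (a), 194 (b), 304 (c) and 139 (d) CPM per kilobase. The 3 copies of site 1175 in RpS16 had 236 (a), 226 (b) and 79.9 (c) CPM per kilobase, and here the first 2 were level with each other. Site 1837 in CG10576, the fly relative of the growth regulator PA2G4, had 1147 (a), 55.2 (b) and 159 (c). The 3 copies of site 3327 in RpS4 had 128 (a), 47.5 (b) and 323 (c), the last from another intron of the gene. In Hrb98DE the third copy of site 3305 lies in an intron of its own and was the highest, at 150 (a), 259 (b) and 539 (c), and site 3405 had 393 (a), 80.0 (b), 248 (c) and 1011 (d). Site 3316 in dom had 5 copies in 2 introns, at 163 (a), 191 (b), 294 (c), 861 (d) and 373 (e).

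**Figure D3:**
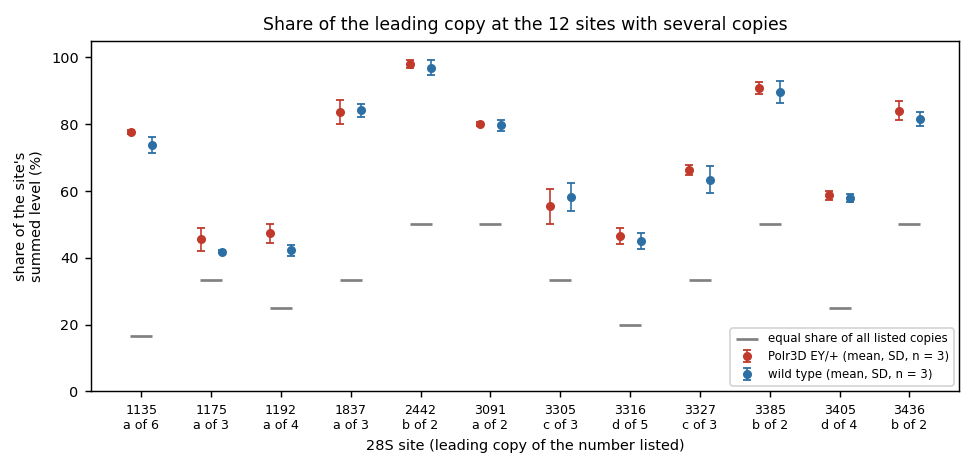
Share of the summed level of a site (%) held by its leading copy at the 12 sites with several copies, as mean and SD of 3 libraries, red for Polr3D EY/+ to the left of blue for wild type, with a grey line at the share each copy would have if all listed copies were equal. The leading copy was chosen by its level in the same libraries, so it lies above its grey line largely by construction. Its share was 45.5% in the mutant and 41.8% in wild type at site 1175, and 98.1% and 96.9% at site 2442.

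The share of the leading copy was close between genotypes at most sites, as the plot of leading shares shows. It was 80.2% ± 0.593 in the mutant and 79.7% ± 1.68 in wild type at site 3091, and 90.8% ± 1.85 in the mutant and 89.6% ± 3.31 in wild type at site 3385 (SD, n = 3 each). At site 1135 the mutant libraries ranged from 77.0 to 78.2% and the wild-type libraries from 71.2 to 75.7%. At site 1192 the ranges were 44.4 to 50.0% in the mutant and 40.6 to 43.9% in wild type. At site 1175 the leading share was 45.5% ± 3.32 in the mutant and 41.8% ± 0.483 in wild type, and the lowest mutant and the highest wild-type library were equal as rounded, at 42.4%. The genotypes did not overlap at sites 1135 and 1192 and only just missed each other at site 1175. These sites were named after their values were seen. Ranges overlapped at the other several-copy sites, and no background rate for such shares was computed. With 3 libraries a genotype a two-sided exact permutation test cannot go below a p of 0.1, and none was run.

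In the comparison of mutant with wild type, no guide passed edgeR's quasi-likelihood test at an adjusted p of 0.10. The fit ran over 411 transcripts and called 5 of them (1.22%), each a nuclear tRNA that was higher in the mutant. Of the 58 guides tested, 0 were called in either direction, the lowest adjusted p was 0.245, and 3 had an unadjusted p under 0.05, all of them lower in the mutant. DESeq2, run without the filter on low counts, and limma-voom also called 0 guides, with 3 each at an unadjusted p under 0.05. Among all 411 transcripts, 22 were lower at that unadjusted p (5.35%), so the 3 of 58 are a share near the background. The standard errors of the guides had a median of 0.17 on the log2 scale (0.11 to 0.45). At 46 of the 58 guides the estimated log2 change was under 0.25 in size.

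Most estimates lay below 0, and how many did and how far depended on the scaling. With TMM, 45 guides had a log2 fold change below 0 and 13 above, which is 77.6% below 0 beside 55.5% of all transcripts. The median over the guides was -0.13 (quartiles -0.23 and -0.03), a fold of 0.91, beside -0.05 for all transcripts tested. When libraries were scaled on the other snoRNAs instead, 32 guides lay below 0 and 26 above with a median of -0.02. With library totals alone 55 lay below 0 with a median of -0.30, and the median of all transcripts moved to -0.22. On mitochondrial tRNAs, 56 lay below 0 with a median of -0.34, and that of all transcripts was -0.24. A scaling moves guides and other transcripts by about the same amount, so the gap between the 2 medians, -0.08 with TMM, is fixed across scalings by construction. Leaving out 1 library in turn gave gaps of -0.11 to -0.02, and with the copies of a site summed the gap was -0.03. The 18S pseudouridylation guides (35 of 44 below 0, median -0.16), the 28S methylation guides (44 of 49, -0.18) and the 18S methylation guides (12 of 19, -0.13) had like medians under TMM. None of them was called by edgeR, and 3, 6 and 3 had an unadjusted p under 0.05, all lower in the mutant. The nuclear tRNAs had a median of 0.34, with 70 of 80 above 0.

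**Figure D4:**
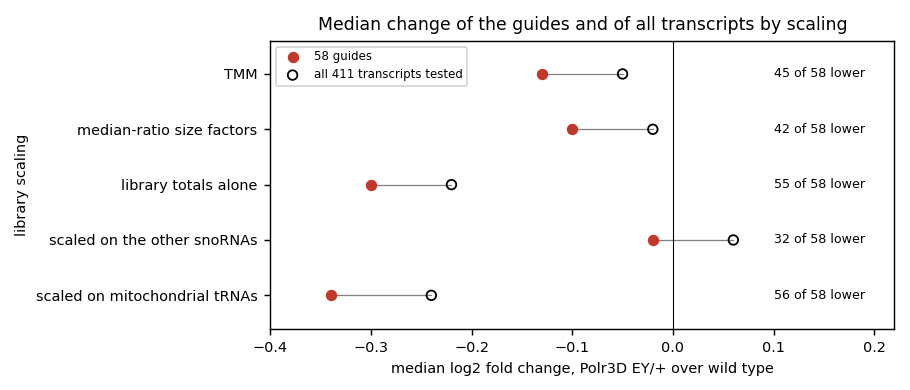
Median log2 fold change (Polr3D EY/+ over wild type, edgeR) of the 58 tested guides, filled, and of all 411 transcripts tested, open, under 5 ways of scaling the libraries, with the number of guides below 0 at the right. The median of the guides lies between -0.34 and -0.02 and that of all transcripts between -0.24 and 0.06, and their distance is fixed by construction because a scaling moves all transcripts alike.

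Counted by library, all 3 mutant values lay below all 3 wild-type values at 13 of the 58 guides under TMM scaling, whereas 10.7% of all transcripts did so. They lay above at 0 guides, where 8.03% of all transcripts did. The share below was 22.4% for the guides, next to 20.5% for the 18S pseudouridylation guides and 24.5% for the 28S methylation guides, and these shares were not tested against each other. This too moved with the scaling: scaled on the other snoRNAs, 3 guides lay wholly below and 2 wholly above, beside 3.41% and 13.4% of all transcripts, and with library totals alone 25 lay below, beside 28.2% of all transcripts.

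The 5 guides with the largest positive estimates were Psi28S-3405a, Psi28S-2149, Psi28S-3405d, Psi28S-1153 and Psi28S-1135a, and the genotypes overlapped at each. Psi28S-3405a had 61.3, 71.3 and 43.8 CPM in the mutant libraries and 47.0, 43.5 and 63.2 CPM in wild type (log2 fold change 0.20, SE 0.21, edgeR adjusted p = 0.636). The third library of each genotype ran against its fellows, low in the mutant and high in wild type. Psi28S-3405d, from the same intron, did likewise with 164, 172 and 114 CPM in the mutant and 116, 125 and 158 CPM in wild type (0.17, SE 0.19, edgeR adjusted p = 0.639). Psi28S-2149 in RpS7 had 112, 111 and 93.4 CPM in the mutant, against 86.2, 85.7 and 104 CPM in wild type (0.20, SE 0.14, edgeR adjusted p = 0.497). Again the third library of each genotype lay nearer to the other genotype. Psi28S-1153 had 6.64, 8.91 and 11.5 CPM in the mutant and 7.49, 6.91 and 10.7 CPM in wild type (0.11, SE 0.26, edgeR adjusted p = 0.835), and Psi28S-1135a had 128, 115 and 104 CPM in the mutant and 105, 102 and 115 CPM in wild type (0.11, SE 0.13, edgeR adjusted p = 0.678). The estimates of these last 2 turned below 0 with library totals alone and on mitochondrial tRNAs.

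The 5 with the largest negative estimates were all members of several-copy sites and none was the leading copy. Psi28S-2442a, the minor copy of a site in kra, had 0.722, 1.76 and 0.808 CPM in the mutant and 2.10, 1.06 and 1.57 CPM in wild type. That is 10 to 27 counts per mutant library and 16 to 32 per wild-type library, and the estimate of -0.52 had a standard error of 0.45 (edgeR adjusted p = 0.588). Psi28S-3327b in RpS4 had 4.12, 5.14 and 7.34 CPM in the mutant and 7.56, 8.17 and 7.57 CPM in wild type, all mutant values below all wild-type values (-0.49, SE 0.24, edgeR adjusted p = 0.375). Psi28S-1175c in RpS16 had 9.03, 9.30 and 9.15 CPM in the mutant, against 14.4, 10.3 and 13.0 CPM in wild type (-0.46, SE 0.19, edgeR adjusted p = 0.314). Its mutant libraries were almost equal, and every wild-type library was above them. Psi28S-1192b in RpS5a had 18.1, 24.8 and 25.6 CPM in the mutant and 28.1, 26.0 and 38.2 CPM in wild type, also without overlap (-0.43, SE 0.21, edgeR adjusted p = 0.355). Psi28S-1135b had 2.96, 3.38 and 1.75 CPM in the mutant and 2.69, 2.33 and 5.70 CPM in wild type, where one high wild-type library set the difference (-0.41, SE 0.41, edgeR adjusted p = 0.605). Without that library the estimate for Psi28S-1135b was 0.10.

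The lowest adjusted p of any guide, 0.245, belonged to Psi28S-3305c, the leading copy of its site in Hrb98DE, which was named after its value was seen. It had 69.3, 68.1 and 78.3 CPM in the mutant libraries and 87.3, 95.0 and 93.5 CPM in wild type, with no overlap. The edgeR estimate was -0.35 (SE 0.12). With library totals alone it was the only guide called, at -0.52 (SE 0.14, edgeR adjusted p = 0.0967), in a fit that called 3.89% of all transcripts. Without the third mutant library, edgeR called 47 transcripts (11.3%) and 3 guides, all lower: Psi28S-1837a at -0.48, Psi28S-3436a at -0.60 and Psi28S-3305c at -0.41, each at an adjusted p of 0.0946. Psi28S-1837a had 126 and 117 CPM in the other mutant libraries but 191 CPM in that one, against 178, 178 and 152 CPM in wild type.

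**Figure D5:**
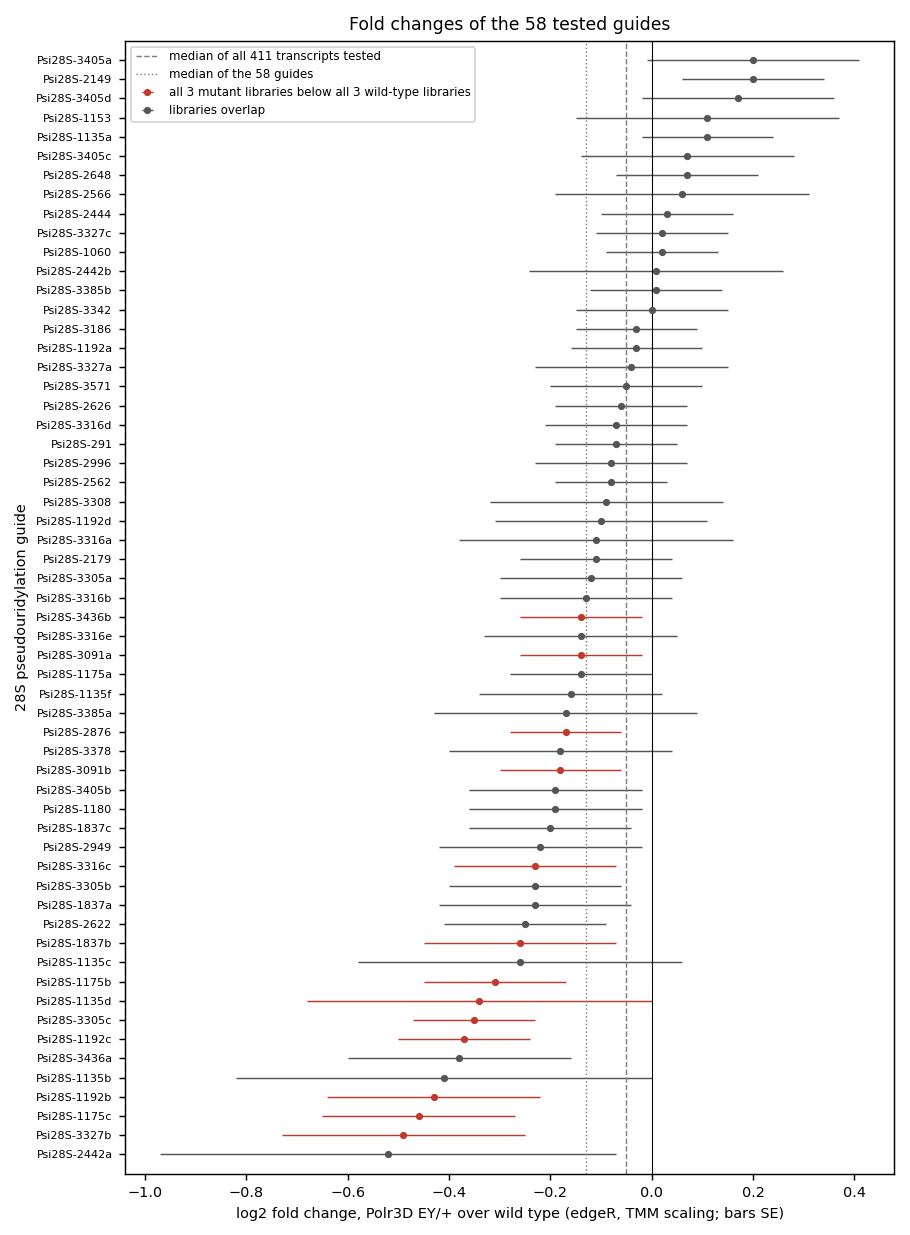
Log2 fold change of each of the 58 tested guides (Polr3D EY/+ over wild type, edgeR with TMM scaling, bars SE), red where all 3 mutant libraries lie below all 3 wild-type libraries, with dashed and dotted lines at the medians of all transcripts and of the guides. Most points lie a little left of 0 with bars that reach or approach it, and the 13 separated guides all lie below 0.

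Along the plot of fold changes, minor copies and guides of low level lay further below 0 than leading copies, single-copy guides and guides of high level. Under TMM the median was -0.22 for the 26 tested copies that do not lead their site (24 below 0), -0.05 for the 12 leading copies (7 below 0) and -0.06 for the 20 single-copy guides (14 below 0). Scaled on the other snoRNAs, these medians were -0.10, 0.06 and 0.05. The distance between minor and leading copies was -0.17 under TMM, which no scaling can change much, and -0.23 to -0.10 when 1 library was left out. Of the 13 guides whose libraries separated under TMM, 9 were minor copies, 3 leading copies and 1 a single-copy guide. The same guides differ in level: the lower 29 of the 58 by level had a median of -0.20 and the upper 29 one of -0.06 under TMM, and -0.09 and 0.06 scaled on the other snoRNAs. The other snoRNAs, split in the same way, had -0.12 in their lower and -0.16 in their upper part under TMM. Copy number and level go together in these guides and cannot be told apart here, the exchange of reads between copies was not tested, and no test was made of any of these differences, which were noticed in the same libraries.

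Summing the copies of a site takes out the effect of reads moving between them. The 12 several-copy sites were then all uncalled by edgeR, with adjusted p of 0.298 or more, and 32 sites in all were tested (22 below 0 and 10 above, median -0.07). Site 3305 had the lowest value at -0.28 (SE 0.12, edgeR adjusted p = 0.298), followed by site 1175 at -0.26 (SE 0.13, edgeR adjusted p = 0.359). The highest was site 3405 at 0.16 (SE 0.19, edgeR adjusted p = 0.668). At site 1135, where the copies spanned -0.41 to 0.11, the sum came to 0.04 (SE 0.13, edgeR adjusted p = 0.882). At site 2442 the sum was 0.0081 (SE 0.22, edgeR adjusted p = 0.981), next to -0.52 for its minor copy. A sum follows the leading copy, which held 75.6% of the level at site 1135 and 97.8% at site 2442. It therefore does not test the estimates of the minor copies.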

How the data were processed

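Short RNAs of female midguts were sequenced in 6 libraries, 3 per genotype, taken from the sample titles. RNA under 200 nucleotides was size-selected and demethylated, which acts on the recovery of long and of heavily modified RNAs. Reads were checked with FastQC, trimmed with Cutadapt and quantified with Salmon against the annotated fly transcriptome with decoys (BDGP6, patch 32). The authors deposited Salmon's estimated counts (expected counts) for transcripts under 300 bases as whole numbers, without scaling for depth. Identifiers matched the Ensembl annotation (release 115, BDGP6 patch 54, the same assembly) for 527 transcripts and not for 4. No sequences were read, and identity between copies was not computed.

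Analysis used R 4.3.3 with edgeR 4.0.16 (filterByExpr at minimum count 10 and minimum total 15, TMM, glmQLFTest; two-sided; Benjamini-Hochberg over all transcripts tested; threshold 0.10, the study's rate). The SE came from the F statistic. Alternatives were DESeq2 1.42.0 (without this filter), limma-voom (limma 3.58.1), other scalings, no filter, a replicate block, summed copies and leaving out each library. The fits were tested on simulated data with changes far larger than those estimated for the guides. That test does not show whether small changes would be found. Totals of 13465392 to 16891428 counts make counting error small except for guides of few counts. Intron positions use the shortest annotated intron of the host that holds the guide.

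The guides given with tests are the 6 highest per length and the 5 largest estimates in each direction. Copies of sites with 3 or more copies are given by level. Members and lists were chosen with earlier results of these data known.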

Additional observations from a re-analysis of the deposited data

How the results depend on the processing

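The number of transcripts called was 5 with edgeR and TMM. It was 30 with DESeq2, 0 with limma-voom, 10 with median-ratio size factors, 16 with library totals alone, 10 scaled on the other snoRNAs, 16 with no filter on low counts and 11 with the copies of a site summed. Leaving out 1 library gave 0 to 47 calls: 12, 1 and 47 without mutant replicates 1, 2 and 3, and 0 without any one of the wild-type replicates. The number of guides called was 0, but 1 with library totals alone, and 0 to 3 when 1 library was left out (3 without mutant replicate 3). The cause of these moves was not tested. Deviations of same-numbered libraries correlated at -0.02, -0.26 and -0.20, none of them positive. No values for differently numbered libraries were set beside these, so a pairing of the libraries by replicate number could not be decided. With the replicate block 14 transcripts and 0 guides were called. Of 240 values of the 16 guides named with tests, 206 kept their direction and 34 changed sign, none of them past the threshold. Under scalings, DESeq2 and no filter, Psi28S-3342 had 0.04 with DESeq2, 0.04 with median-ratio size factors, 0.11 scaled on the other snoRNAs and 0.05 with no filter. Psi28S-3186 had 0.0026, 0.0054, 0.08 and 0.01 in the same 4 fits. With library totals alone Psi28S-3385b had -0.17, Psi28S-1060 -0.15, Psi28S-1153 -0.06 and Psi28S-1135a -0.06. Scaled on mitochondrial tRNAs they had -0.19, -0.18, -0.14 and -0.07, and Psi28S-3405d had -0.0052. With the copies summed, Psi28S-3342 had 0.0068, and the sites of Psi28S-3385b, Psi28S-2442a and Psi28S-1135b had -0.0066, 0.0081 and 0.04. Leaving out 1 library gave ranges that cross 0 for Psi28S-3342 (-0.10 to 0.12), Psi28S-3385b (-0.03 to 0.10), Psi28S-3186 (-0.07 to 0.04), Psi28S-1060 (-0.01 to 0.06), Psi28S-1153 (-0.09 to 0.32) and Psi28S-1135b (-0.64 to 0.10). The share held by the 6 highest guides was 46.9% without division by length. With library totals alone it was 47.0%, which is fixed by construction because a share within a library does not move with its scaling. Depth limits guides of few counts: Psi28S-2442a and Psi28S-1135d, with 10 to 32 and 14 to 23 counts a library, had standard errors of 0.45 and 0.34.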
